A study of Homo sapiens with 4 samples.

Results

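The G protein beta subunit genes GNB1, GNB2, GNB3, GNB4 and GNB5 were examined in HEK293 cells. Their probes were found through the RefSeq accession in the probe name, and all 5 genes were matched, out of 17214 named genes on the array. Each gene had 1 target with 3 probes. HEK293 is a human embryonic kidney line immortalised with sheared adenovirus DNA, in which cloned receptors are often studied. The design held a single group of 4 arrays, each hybridised with total RNA from its own plate of untreated, confluent cells grown in DMEM with fetal bovine serum and antibiotics. There was thus no contrast between conditions, and the question was which beta subunits give message above background in the line.

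A heterotrimeric G protein consists of an alpha subunit, which binds guanine nucleotide, and a beta and a gamma subunit that stay together as a dimer. When a receptor activates the protein, the beta-gamma dimer is freed and acts on its own targets, among them phospholipase C beta, adenylyl cyclases, phosphoinositide 3-kinase, GPCR kinases, inwardly rectifying potassium channels and presynaptic calcium channels. A beta subunit is a propeller of WD repeats that needs the cytosolic chaperonin CCT and a phosducin-like helper to fold. GNB1 to GNB4 encode close relatives. GNB5 encodes a more distant relative that pairs with the R7 family of RGS proteins rather than with conventional gamma subunits.

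Signal was read after the approach in the study's methods. Seminal protein genes, which kidney cells should not use, served as controls, and their mean plus 2 SD set a baseline for each array. A gene's log2 level minus the baseline of the array is called its distance here, in log2 units, and a gene counted as above the baseline where its mean distance over the 4 arrays was over 0. Replicates 1 to 4 had baselines of 9.47, 9.94, 10.69 and 10.32 log2 units. It rested on 10 of the 11 control genes that the methods list, since PYY2 was not matched, and of these SPATA13 and AFG2A (listed as SPATA5) lay far above the other 8 on each array. Of 8 marker genes chosen for the line, among them neurofilament, vimentin and keratin genes, 7 were above the baseline, and PAX2 was not. Of these 7, 6 were above it on all 4 arrays. None of 7 mature kidney, 5 blood cell and 7 photoreceptor markers was above it by the mean, where 52.7% of all named genes were. One marker, the neurofilament gene NEFM, split the arrays, with replicates 1 and 3 above the baseline, replicates 2 and 4 below it and an SD of 3.08, so values for these pairs are given where they matter. Probes differ in affinity, so distances of different genes do not rank their transcripts by abundance.

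All 5 beta subunit genes were above the baseline, and each of them on all 4 arrays. Across the array 52.7% of named genes were above the baseline by their mean and 45.0% on all 4 arrays. The median distance of the 5 genes was 1.83 log2 units, against 0.26 for all named genes. On every array GNB1 had the largest distance of the 5 and GNB3 the smallest, with GNB2, GNB4 and GNB5 between them in that order. GNB1 and GNB2 were nearly level on replicate 3, at 3.45 and 3.44, and close on replicate 4, at 3.72 and 3.64. A one-sided limma test of the distances against 0, with Benjamini-Hochberg adjustment over all named genes, called 4 of the 5, where it called 45.9% of all named genes. GNB3 was the exception.

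**Figure D1:**
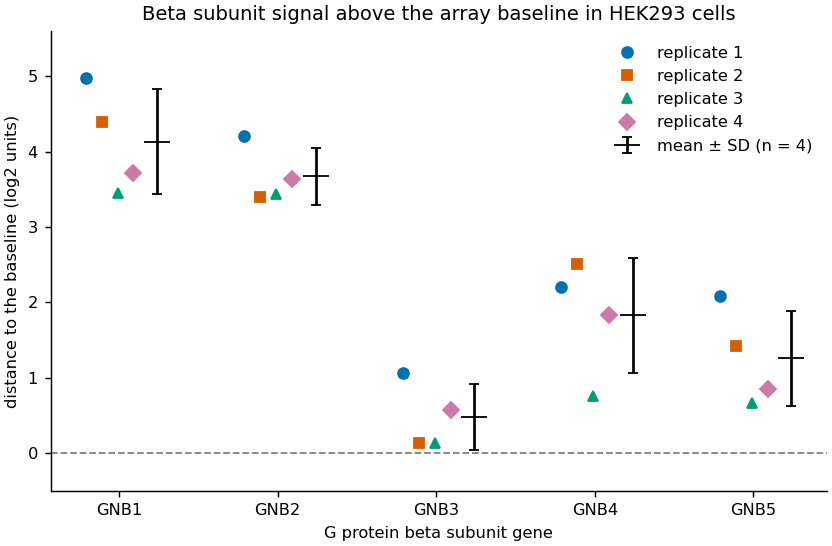
Distance to the baseline in log2 units for each beta subunit gene, with 1 symbol per array and the mean ± SD over 4 arrays in black. All 20 points lie above the dashed line at 0, those of GNB3 between 0.14 and 1.06 and those of GNB1 between 3.45 and 4.99.

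GNB1 encodes a beta subunit found in most tissues and in the rod transducin heterotrimer. Its log2 level was 14.45, 14.33, 14.14 and 14.04 on replicates 1 to 4. The arrays lay within 0.41 log2 units of each other, with replicates 1 and 2 above 3 and 4. The SD of the level was 0.19, where the median gene had 0.42. Its distance was 4.14 ± 0.69 log2 units (SD, n = 4), with 4.99 on replicate 1 and 3.45 on replicate 3 as the extremes. The limma 95% interval ran from 3.45 to 4.82 (limma adjusted p = 5.0e-31). The spread of the distance exceeded that of the level, and the baseline itself spanned 9.47 to 10.69.

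GNB2 encodes the other broadly used beta subunit. Its log2 level was 13.68, 13.34, 14.13 and 13.96 on replicates 1 to 4, with replicates 3 and 4 both above replicates 1 and 2. The distance was 4.21, 3.40, 3.44 and 3.64, a mean of 3.67 ± 0.38 (SD, n = 4). Here replicate 1 stood highest and the other arrays lay close together. Of the 5 genes GNB2 had the smallest SD of the distance (limma adjusted p = 7.5e-25).

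GNB4, whose gene is affected in a form of Charcot-Marie-Tooth neuropathy, had a log2 level of 11.68, 12.45, 11.45 and 12.16 on replicates 1 to 4. Replicates 2 and 4 were higher than replicates 1 and 3. The distance was 2.21, 2.51, 0.76 and 1.84, a mean of 1.83 ± 0.76 (SD, n = 4). Replicate 3 was the lowest array, and it also had the highest baseline. The limma 95% interval ran from 1.14 to 2.52 (limma adjusted p = 3.0e-07). Taken on replicates 1 and 3 alone the distance was 1.48, and on replicates 2 and 4 alone it was 2.17. GNB2, the next most different between these pairs, had 3.82 and 3.52.

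GNB5 encodes the beta subunit of nervous tissue and retina that forms dimers with R7 RGS proteins. Its log2 level was 11.55, 11.36, 11.36 and 11.17 on replicates 1 to 4. These values had an SD of 0.15, the smallest of the 5 genes. The distance was 2.08, 1.42, 0.67 and 0.85, a mean of 1.26 ± 0.64 (SD, n = 4), higher on replicates 1 and 2 than on replicates 3 and 4. The limma 95% interval ran from 0.57 to 1.94 (limma adjusted p = 4.4e-04). With the median of its probes in place of their mean the distance was 0.64 and no longer passed (limma adjusted p = 0.071).

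GNB3 encodes the beta subunit of cone photoreceptors, where it joins the cone transducin alpha subunit and the gamma subunit GNGT2. Its log2 level was 10.53, 10.08, 10.83 and 10.89 on replicates 1 to 4, lowest on replicate 2. The distance was 1.06, 0.14, 0.14 and 0.57, a mean of 0.48 ± 0.44 (SD, n = 4). All 4 arrays lay above the baseline, replicates 2 and 3 only just. The limma 95% interval ran from -0.21 to 1.16 and included 0 (limma adjusted p = 0.182), so by this test GNB3 could not be told from the baseline. The fit gave every gene the same standard error of 0.35 log2 units.

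The sorted values of replicates 1 and 2 were nearly identical, as were those of replicates 3 and 4, so the beta subunits were also read within these pairs. On replicates 1 and 2 the mean distances were 4.69 for GNB1, 3.81 for GNB2, 0.60 for GNB3, 2.36 for GNB4 and 1.75 for GNB5. On replicates 3 and 4 they were 3.58, 3.54, 0.35, 1.30 and 0.76 in the same order. All 5 were above the baseline in either pair. Before subtraction, the level on replicates 3 and 4 was 0.54 log2 units higher than on replicates 1 and 2 for GNB2 and 0.55 higher for GNB3. It was lower there for the others, by differences of -0.30 for GNB1, -0.26 for GNB4 and -0.19 for GNB5, while the median gene differed by 0.08. Which step of the processing or which RNA these differences came from was not tested.

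The probes behind each gene were then read 1 by 1, in the order of the number in their names. Of 15 probes, 11 lay above the baseline on all 4 arrays and 2 lay below it on all 4. The share over all probes of the array was not computed, while 45.0% of named genes were above the baseline on all 4 arrays. The 3 probes of GNB1 averaged 14.77, 13.67 and 13.98 log2 units over the arrays, and all 12 values were above the baseline. Its second probe was at 14.26 and 14.24 on replicates 1 and 2 but at 13.16 and 13.03 on replicates 3 and 4. The other probes of GNB1 moved by 0.14 or less between these pairs, so that 1 probe carried the difference. For GNB2 the averages were 12.78, 13.65 and 14.38, again with all 12 values above. Each of its probes was higher on replicates 3 and 4, by 1.26, 0.58 and 0.23.

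The probes of GNB4 averaged 12.16, 12.06 and 11.38, and each of their 12 values was above the baseline. They spanned 0.78 log2 units, a narrower range than the median of 1.48 over named targets. The first and the second were higher on replicates 2 and 4, the second by the most, at 12.88 and 12.50 against 11.75 and 11.11. The third probe ran from 11.23 to 11.64 and did not follow that pattern.

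GNB5 was the member whose probes differed most. They averaged 12.51, 10.61 and 8.71 log2 units, a span of 3.80 that was wider than that of 91.3% of named targets. The first probe was over the baseline on each array, the second on 3 arrays and the third on none. Without the first probe the distance of GNB5 was -0.13, so the call of GNB5 rested on that probe. Whether the probes report different transcripts of the gene was not tested.

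For GNB3 the averages were 9.43, 10.54 and 11.07. The first probe lay below the baseline on all 4 arrays, the second above it on replicates 2 and 4, and the third above it on all 4. The third probe read 11.60, 10.04, 11.54 and 11.08 on replicates 1 to 4. Without the third probe the distance of GNB3 was 0.03 (limma adjusted p = 0.899), so its place above the baseline rested mostly on that probe. Without the second probe the distance was 0.37 (limma adjusted p = 0.293), and without the first it was 0.82 and passed the test (limma adjusted p = 0.021).

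**Figure D2:**
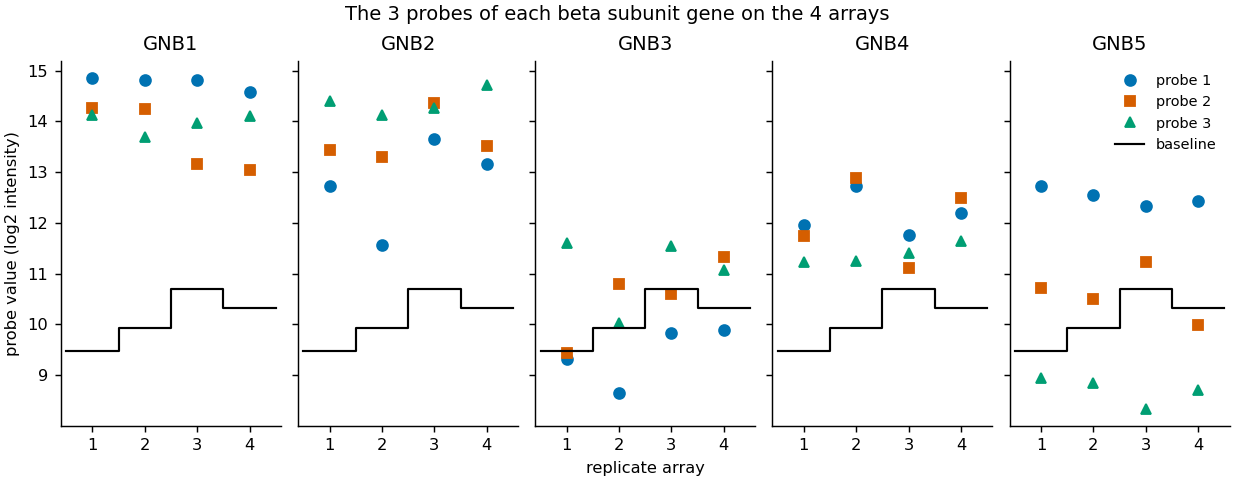
Log2 intensity of the 3 probes of each beta subunit gene (symbols) on replicate arrays 1 to 4, with the baseline of each array as a black step. All probes of GNB1, GNB2 and GNB4 lie above the line, while GNB3 and GNB5 each have 1 probe below it on every array.

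The distances also depended on how the baseline was set. With olfactory receptor genes as controls they were 6.22 for GNB1, 5.76 for GNB2, 3.91 for GNB4, 3.34 for GNB5 and 2.56 for GNB3, and all 5 genes passed the test. That baseline had 71.4% of all named genes above it, against 52.7% with the seminal controls. Without SPATA5 and SPATA13 the baseline fell from 10.10 to 7.78 and GNB3 stood at 2.80 (limma adjusted p = 6.3e-13). Of all named genes 74.0% were above this baseline. With 3 SD the baseline rose to 11.42, and 39.1% of all named genes were above it. Then GNB1 at 2.82 and GNB2 at 2.35 still passed, GNB4 stood at 0.51 (limma adjusted p = 0.277), and GNB5 and GNB3 were below it at -0.06 and -0.84. GNB1 and GNB2 were above the baseline and past the test under each of 22 alternatives that had a test. GNB3 passed in 8 of the 22, with adjusted p-values from 6.3e-13 to 1.0.

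**Figure D3:**
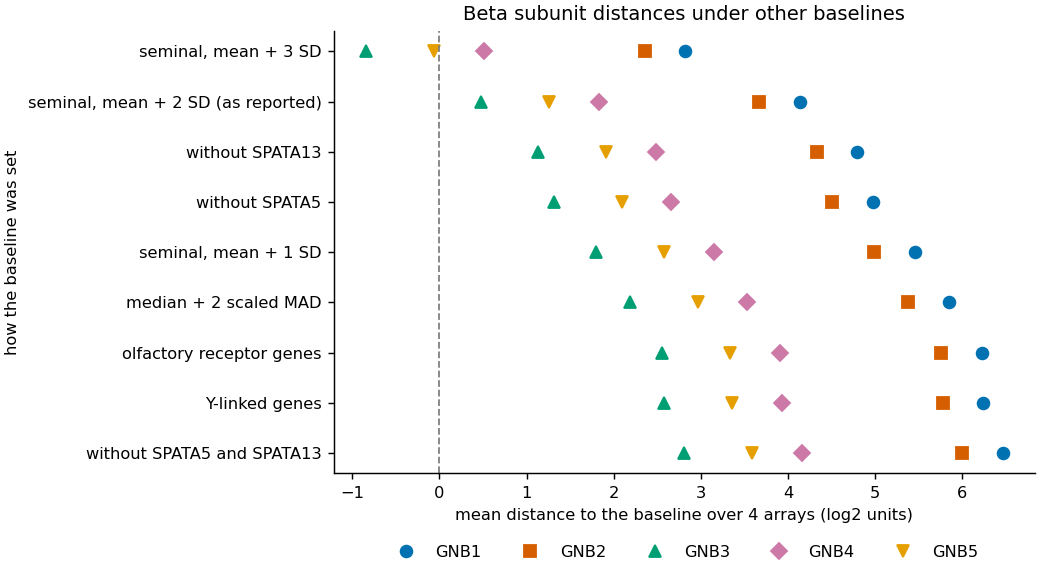
Mean distance to the baseline over 4 arrays in log2 units for the 5 beta subunit genes (symbols), 1 row for each way of setting the baseline. GNB1 and GNB2 lie right of the dashed line at 0 in every row, while GNB3 and GNB5 fall left of it with 3 SD.

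The start regions of the genes were read from RefSeq promoter windows of assembly GRCh38.p14, 250 bases before to 50 bases after a start. They are shown because the share of genes above the baseline went with the CpG content of this window. Of named genes with 1 listed start, 9.73% were above the baseline in the group with 0 to 10 CpG dinucleotides, 61.3% with 11 to 23, 70.5% with 24 to 32 and 72.2% with 33 to 69. This is a description over genes, and the base composition of the array probes was not examined. Of the beta subunits, 4 had a listed window. GNB1 had 48 CpG, GNB4 43 and GNB2 24, which put them in the upper 2 of these 4 groups. As many CpG as in GNB1 occurred in 1.98% of all listed windows, as many as in GNB4 in 4.98% and as many as in GNB2 in 33.9%. GNB5 had 3 listed starts with 5, 37 and 42 CpG, and the first of these is printed as the one that differs. Sequences run 5′ to 3′, and capitals mark each CG, which reads the same on both strands.
GNB1 promoter window, chr1:1891038-1891337, minus strand: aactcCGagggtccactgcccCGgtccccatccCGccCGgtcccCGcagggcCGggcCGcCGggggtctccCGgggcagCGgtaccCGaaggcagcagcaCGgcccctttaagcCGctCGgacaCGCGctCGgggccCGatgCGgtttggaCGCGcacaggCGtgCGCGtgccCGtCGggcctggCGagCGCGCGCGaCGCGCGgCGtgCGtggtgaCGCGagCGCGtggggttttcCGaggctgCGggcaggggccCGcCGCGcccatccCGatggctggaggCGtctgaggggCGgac
GNB2 promoter window, chr7:100673490-100673789, plus strand: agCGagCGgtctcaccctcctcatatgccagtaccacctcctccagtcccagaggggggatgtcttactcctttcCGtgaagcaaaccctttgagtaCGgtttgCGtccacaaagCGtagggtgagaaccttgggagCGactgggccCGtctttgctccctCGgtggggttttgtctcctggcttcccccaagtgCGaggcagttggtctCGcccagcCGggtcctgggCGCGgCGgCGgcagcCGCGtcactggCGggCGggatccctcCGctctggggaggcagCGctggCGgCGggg
GNB4 promoter window, chr3:179451421-179451720, minus strand: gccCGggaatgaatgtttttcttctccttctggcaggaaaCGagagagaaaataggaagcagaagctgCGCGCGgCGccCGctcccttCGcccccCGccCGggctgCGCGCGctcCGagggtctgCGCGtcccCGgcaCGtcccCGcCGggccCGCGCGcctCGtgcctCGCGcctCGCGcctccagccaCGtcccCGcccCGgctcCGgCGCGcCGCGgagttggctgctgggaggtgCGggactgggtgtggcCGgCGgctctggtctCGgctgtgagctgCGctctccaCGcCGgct
GNB5 promoter window, chr15:52191343-52191642, minus strand: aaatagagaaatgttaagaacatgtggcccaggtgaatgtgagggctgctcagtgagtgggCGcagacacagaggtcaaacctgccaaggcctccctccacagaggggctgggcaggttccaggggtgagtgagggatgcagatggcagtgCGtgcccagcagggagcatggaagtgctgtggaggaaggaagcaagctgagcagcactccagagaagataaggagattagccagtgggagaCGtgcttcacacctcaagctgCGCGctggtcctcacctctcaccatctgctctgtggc

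The genes that work with beta subunits were set beside them. Gamma subunits anchor the dimer in the membrane through a lipid tail. Of 12 gamma genes 6 were above the baseline, where 52.7% of all named genes were, and their median distance was -0.07. The limma test called 4 above and 4 below it, against 45.9% and 41.0% of all named genes, so neither count was above the share of the whole array. Those called above were GNG10 at 3.06 ± 0.79, GNG12 at 2.96 ± 0.57, GNG4 at 2.23 ± 0.64 and GNG5 at 1.87 ± 0.80 log2 units (SD, n = 4 for each). GNG2, a common partner of GNB1 in reconstituted dimers, stood at 0.05 ± 0.46 (SD, n = 4). Of 15 matched alpha subunit genes 9 were above the baseline, each on all 4 arrays and called by limma, with a median of 1.46. Over all named genes the shares were 52.7% by the mean, 45.0% on all 4 arrays and 45.9% by limma, so the alpha subunit count was not far from that of the array as a whole. GNAS, the stimulatory alpha subunit, stood at 5.03 ± 0.73, and GNAI2, an inhibitory one, at 3.77 ± 0.54 (SD, n = 4 for each).

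Genes for the folding of beta subunits had a median distance of 4.42, and 10 of 13 were called above the baseline by limma, where 45.9% of all named genes were. All 8 CCT subunit genes were, from CCT5 at 0.91 ± 0.76 to CCT3 at 5.54 ± 0.74 (SD, n = 4 for each). PDCL, the phosducin-like protein that works with CCT on beta subunits, stood at -0.33 ± 0.72 (SD, n = 4) and was above the baseline on replicate 1 alone. Its relative PDCL3 stood at 3.84 ± 0.61, while PDCL2 and PDC were below the baseline on all 4 arrays. DNAJC14, a chaperone linked to gamma subunit assembly, stood at 3.48 ± 0.36 (SD, n = 4). Among WD repeat relatives, the ribosome-bound scaffold RACK1 stood at 5.68 ± 0.64, WDR26 at 2.86 ± 1.24 and GNB1L at -0.54 ± 0.40 (SD, n = 4 for each).

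GNB5 was above the baseline, a call that rested on its first probe, while 0 of 8 genes for its partners were. These are the R7 RGS genes RGS6, RGS7, RGS9 and RGS11 and the membrane anchors RGS7BP, RGS9BP, GPR158 and GPR179. Each lay below the baseline on all 4 arrays and was called below it by limma, where 41.0% of all named genes were. The highest was RGS7 at -1.71 ± 0.91 and the lowest GPR158 at -3.50 ± 0.31 (SD, n = 4 for each). A distance below the baseline says that the probes gave less signal than the limit set by the control genes, not that the transcript was absent.

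For GNB3 the genes of cone and rod signalling were read. None of 19 matched phototransduction genes was above the baseline on any array, where 6854 of 17214 named genes were below it on all 4. The 19 genes had a median distance of -2.97. The cone partners of GNB3 were among them, with the alpha subunit GNAT2 at -1.90 ± 0.29 and the gamma subunit GNGT2 at -2.99 ± 0.62 (SD, n = 4 for each). GNB1's rod partners GNAT1 and GNGT1 stood at -2.40 ± 0.49 and -2.62 ± 0.30 (SD, n = 4 for each).

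Of 13 genes for beta-gamma effector enzymes 5 were above the baseline, and limma called 4 above and 8 below, against 52.7%, 45.9% and 41.0% of all named genes in that order. PLCB3, a phospholipase C activated by beta-gamma, stood at 2.14 ± 0.32, the adenylyl cyclase ADCY7 at 1.66 ± 0.31, the phosphoinositide 3-kinase gene PIK3CB at 1.62 ± 0.92 and GRK3 at 1.59 ± 0.60 (SD, n = 4 for each). GRK2, which beta-gamma also brings to the membrane, lay at -3.50 ± 0.68, and the phosphoinositide 3-kinase gene PIK3CG at -3.13 ± 0.41 (SD, n = 4 for each). The potassium channel genes KCNJ3, KCNJ5, KCNJ6 and KCNJ9, which beta-gamma opens, and the calcium channel genes CACNA1A and CACNA1B, which it inhibits, were all below the baseline on all 4 arrays, with a median of -3.14. Over all named genes, 6854 of 17214 were below the baseline on all 4 arrays.

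KCTD proteins bind beta-gamma, and KCTD5 with the ubiquitin ligase scaffold CUL3 takes part in its turnover. Of these 7 genes limma called 2 above and 3 below, against 45.9% and 41.0% of all named genes. KCTD5 stood at 3.34 ± 0.43 and KCTD2 at 2.71 ± 0.55, while CUL3 lay at -2.55 ± 0.38 (SD, n = 4 for each). KCTD8 read 0.14 and -0.78 on replicates 1 and 3 and -3.90 and -3.51 on replicates 2 and 4. The spread over all lists is seen in the plot of the lists.

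**Figure D4:**
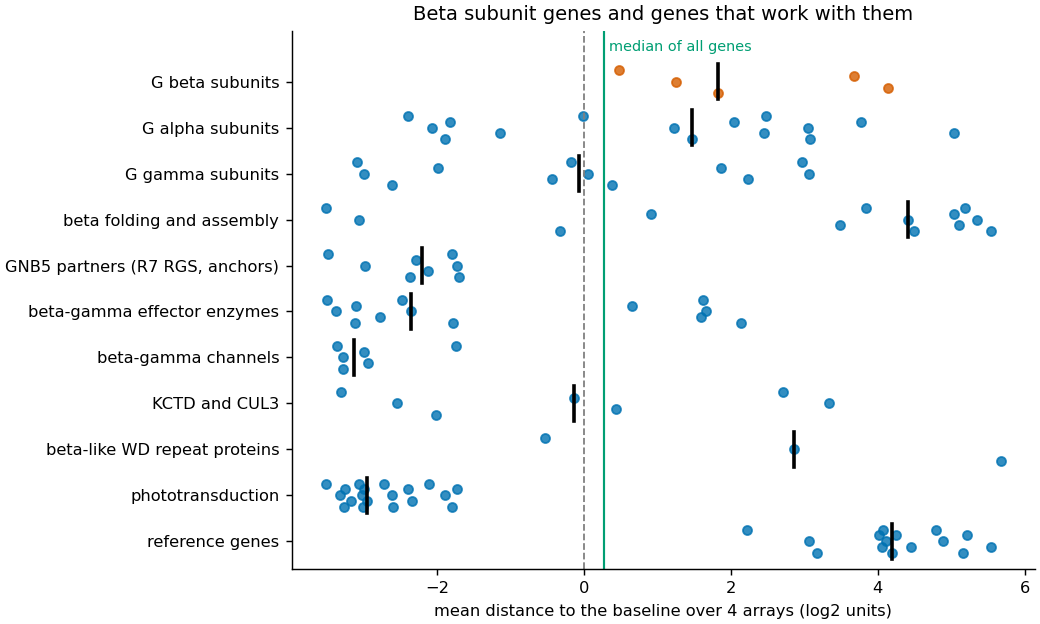
Mean distance to the baseline over 4 arrays in log2 units, 1 point per gene, for the beta subunits (orange) and the lists of genes that work with them (blue), with the median of each list as a black bar and the median of all named genes, 0.26, as a green line. All 5 beta subunits lie right of 0, while no partner of GNB5 and no phototransduction gene does.

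Neighbouring genes were read because the labelling protocol copied double-stranded cDNA with random primers and kept no strand. In the RefSeq gene table GNB3 overlaps CDCA3, a cell cycle gene, by 2596 bases of their spans. CDCA3 stood at 3.72, 2.46, 1.77 and 2.05 on replicates 1 to 4, a mean of 2.50 ± 0.86 (SD, n = 4), above the baseline on all 4 arrays. The second probe of CDCA3 averaged -0.95 and was above the baseline on 1 array. The next genes on either side of GNB3, P3H3 and USP5, stood at 0.89 ± 0.63 and 3.51 ± 0.47 (SD, n = 4 for each). Whether the probes of GNB3 fall in the shared stretch was not tested. GNB5 overlaps the long non-coding RNA gene CERNA1 by 11367 bases, and GNB4 overlaps pseudogenes by 1007, 385 and 25 bases. None of these was matched on the array. For GNB5 the neighbours were BCL2L10 at -0.80 ± 0.36 and MYO5C at 1.46 ± 0.58 (SD, n = 4 for each). NADK, beside GNB1, stood at 3.17 ± 0.78 and ACTL6A, beside GNB4, at 3.06 ± 0.96 (SD, n = 4 for each). The direct neighbours of GNB2 were not matched on the array.

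Among 104 listed genes, the one whose log2 levels followed each beta subunit most closely over the 4 arrays, after the mean of each gene was taken off, was GRK2 for GNB1, ARR3 for GNB2, GNGT1 for GNB3, PLCB2 for GNB4 and PDCL3 for GNB5. Their mean absolute differences were 0.04, 0.04, 0.10, 0.07 and 0.03 log2 units in that order, against medians over the list of 0.38 to 0.45. Each gene was picked as the closest of the 104, so its difference had to lie below the median. With 4 arrays of 1 condition the match describes the arrays, and 4 of these 5 genes were below the baseline.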

How the data were processed

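Total RNA of 4 plates was hybridised in 1 colour to NimbleGen HG18 arrays of 60-mer probes. The authors deposited 1 log2 intensity per probe and array. Scanner files were extracted with NimbleScan, and the submitters' processing notes name RMA without a role; a background correction is not given in the sources used here. Values ran from 5.14 to 15.99, and sorted values lay within 0.01 at 99.97% of ranks for replicates 1 and 2 and 99.99% for replicates 3 and 4, against at most 1.25% between these pairs. At most 8 of 71998 values were identical between any 2 arrays.

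Of 24000 targets, 19122 were named through unversioned accessions. The linear mean of the probes of a target was log2 transformed, and targets of a gene were averaged. Distances were tested with limma 3.58 (R 4.3), one-sided, with Benjamini-Hochberg adjustment at 0.05. The script was tested on simulated data with independent noise and no baseline shared by the genes of an array. That test therefore does not cover the effect of the shared baseline on the p-values. The smallest p an exact test by sign flips of 4 arrays allows is 0.0625. The same baseline enters every gene of an array, so the genes' tests were not independent. The number of arrays limits the precision. P-values rest on 1 spread that the fit shared over all genes, that of the distances between plates of 1 line. It includes the spread of the baseline, and a gene's own spread does not enter. The choice of control genes is not covered by it.

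Named genes were the beta subunits, the listed pathway, marker and control genes, direct neighbours, and the most alike listed gene. Members and lists were chosen with earlier results of these data known. Alternatives covered control genes, baseline height, probe and target summaries, normalization, the test and left-out replicates.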

Additional observations from a re-analysis of the deposited data

Results flagged for a closer look

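Of 157 sets of 4 array values, 6 had 1 array that stood apart past Dixon's critical value for the ratio of gap to range, a bar that about 1 in 20 sets pass by chance. The first probe of GNB1 read 14.58 on replicate 4 and 14.82 to 14.86 on the others (ratio 0.855). On replicate 1 the distance was 5.85 for GAPDH against 4.37 to 4.51 elsewhere (ratio 0.906), 4.56 for GNAI2 against 3.40 to 3.60 (ratio 0.830), and -1.91 for PDE6B against -2.93 to -2.78 (ratio 0.854). The distance of CACNA1A reached -2.71 on replicate 4, where the other arrays gave -3.51 to -3.43 (ratio 0.907). RGS6 had -3.64 on replicate 3, where the other arrays gave -2.05 to -1.86 (ratio 0.893). Except for the GNB1 probe, these values are distances, from which the baseline of the array had been subtracted. That baseline was lowest on replicate 1, at 9.47 log2 units, and highest on replicate 3, at 10.69. The flagged genes were not read by their levels before subtraction here, and the part of the baseline in these values was not tested.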

How the results depend on the processing

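With a baseline of 3 SD, 3 beta subunits were above it and limma called 2, with GNB3 at -0.84 and GNB5 at -0.0618. Without the first probe GNB5 stood at -0.13. In the other alternatives all 5 stayed above the baseline. The share of all named genes above it was 39.1% with 3 SD, 64.3% with 1 SD, 67.7% with the median and scaled MAD, 71.4% with olfactory receptor genes, 71.6% with Y-linked genes, 74.0% without SPATA5 and SPATA13, 60.1% without SPATA5 and 58.6% without SPATA13. Leaving out single replicates gave 3.85 to 4.37 for GNB1, 3.49 to 3.76 for GNB2, 0.28 to 0.59 for GNB3, 1.60 to 2.18 for GNB4 and 0.98 to 1.45 for GNB5. GNB4 lost significance with 3 SD, and GNB5 with 3 SD, with the median of the probes and without its first probe. GNB3 gained it in 8 alternatives, namely with the other control sets, with 1 SD, with the MAD and without its first probe. Left-out probes, SPATA5 or SPATA13 left out singly, the call on all 4 arrays and the pairs of replicates 1 and 3 and of 2 and 4 were added after the data were seen. No raw intensities were used, so spots near background or saturation were not examined. The design holds a single group, so no pairing between conditions was possible. The limma fit took the 4 arrays as independent, although sorted values nearly agreed within replicates 1 and 2 and within replicates 3 and 4. A fit on the means of these pairs was not run. A planned fit instead averaged replicate 1 with 3 and replicate 2 with 4, so each mean mixed both pairs. Its limma adjusted p-values were 1.8e-05 for GNB1, 2.3e-05 for GNB2, 7.2e-04 for GNB4, 0.0022 for GNB5 and 0.093 for GNB3. It called 4 of the beta subunits, all but GNB3. For these 4 the p-values were larger than in the fit of 4 separate arrays, and for GNB3 the value was smaller.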
